A study of Mus musculus and Mus musculus
Rattus norvegicus with 30 samples.

Results

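RMES cells are embryonic stem cells made by fusing mouse haploid with rat haploid ESCs, so that each nucleus carries 1 mouse and 1 rat copy of the genome. The comparison described here sets the mouse copy of each gene (the mouse allele) against the rat copy (the rat allele) in 2 uninduced RMES libraries, WT 1 and WT 2. Genes were chosen by symbol: 15933 genes carried the same symbol in the mouse and the rat table, and 12243 of them had enough counts to be tested. The paper took homologous genes from Ensembl, whereas orthology was not checked here. In families of several copies a shared symbol may therefore not mark the same gene. Both groups of RMES libraries came from cells grown in N2 and B27 medium with a Mek inhibitor, a Gsk3 inhibitor and mLIF. The induced cells, used here only for contrast, were 2 libraries from lines transduced with Flag-tagged Cdx2 of mouse (mCdx2-OE) or rat (rCdx2-OE) under a DOX-inducible promoter. The labels do not say whether the WT libraries came from the parental line or from a transduced line without DOX.

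A difference in expression between species can come from the regulatory DNA beside a gene (in cis) or from the factors that act on it (in trans). Where both genomes share a nucleus, both alleles meet the same transcription factors, so a difference between them is read as a cis difference. Pluripotency in such cells is held by a core set of factors around Oct4 (Pou5f1), Sox2 and Nanog, together with naive factors such as Klf4, Esrrb and Tfcp2l1 that LIF, Wnt and the inhibitors sustain.

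The mouse table held 37609210 counts for WT 1 and 41418817 for WT 2, and the rat table held 29453412 and 32200333. Mouse reads made up 56.1% and 56.3% of the libraries. Core and naive pluripotency markers were abundant on both alleles, at a summed 5590 and 5650 CPM (counts scaled to the total of the table) on the mouse and 3640 and 3700 on the rat allele, from 8 and 7 markers. Fibroblast markers, which feeder cells would bring, summed to 19.5 and 23.9 CPM on the mouse and 19.1 and 25 on the rat allele. Col1a1 had 491 and 659 mouse and 494 and 694 rat counts, Col1a2 had 151 and 223 against 0 and 2, and Dcn was at 0 in both tables. Any part of feeder cells in these values was not tested. The symbols Zfp42 and T occurred in the mouse table only. Both induced libraries stood apart from the WT pair in their mitochondrial RNA, which was nearly all of mouse origin in WT and of rat origin in induced cells, and in the ratio of genes on mouse chromosome 16, described below. Results that rest on the induced libraries therefore compare cells that differ in more than DOX, and the parts of induction and of cell line cannot be told apart.

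Levels are given in RPKM, here the counts divided by the annotated gene length of each species' own table and by a TMM-normalised library size. A gene was called when its mouse to rat ratio exceeded 2-fold and edgeR's quasi-likelihood test, with the library as a block, gave an adjusted p (Benjamini-Hochberg) below the threshold of 0.05. The mouse allele was called higher for 2992 genes (24.4% of those tested) and the rat allele for 2941 (24.0%), so that 5933 genes (48.5%) differed over 2-fold. At any fold, 11001 genes (89.9%) passed the adjusted p. The middle part of the distribution was symmetric, with quartiles of −0.95 and 0.97 on the log2 scale. Over 16-fold, 812 genes were higher on the mouse and 592 on the rat allele. For most genes both libraries gave nearly the same ratios: the absolute difference between them had a median of 0.0912 and a 95th percentile of 1.01 on the log2 scale. All 5263 called genes with counts on both alleles in both libraries had the same direction in WT 1 and WT 2. The calls were made from these same libraries, so that this agreement is no separate support. For the 154 called genes named below, the adjusted p was at most 2.8e-05. The p-values measure only the spread between these 2 libraries, for which no source names separate cultures.

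The tables differ in annotation, and that set a limit on the calls. The annotated length of a tested gene was a median 1.59 times longer in the mouse table, and 90.5% of genes were longer there. Without any normalisation between the allele columns the median ratio moved by −0.43, and the calls became 2300 mouse against 4150 rat, so the equal split of the main result was set by the scaling. Calls are therefore given also as those that held in the same direction without this normalisation, with centring on genes of like length, and without division by length: 2119 genes (17.3%) for the mouse, 2019 (16.5%) for the rat and 4138 (33.8%) in all. Such genes are said below to hold under every scaling. Omitting the normalisation and centring moved the ratios towards the rat allele, by −0.43 and −0.45, so they could remove mouse calls but hardly rat calls. For a rat call, holding rests mainly on the fit without division by length, and the held counts of the 2 directions met unlike hurdles. For genes with at least 50 counts on each allele in each library, 753 and 877 of 8898 did so (18.3%).

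**Figure D1:**
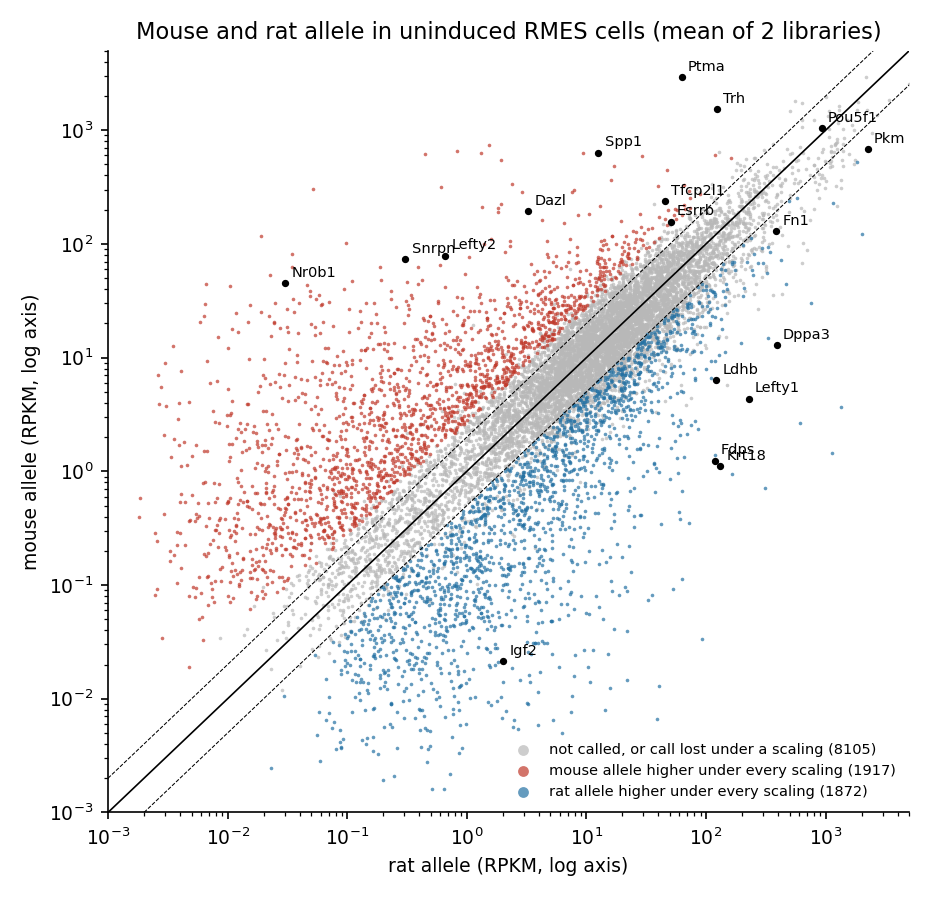
Level of each tested gene on the rat (x axis) and the mouse allele (y axis), in RPKM on log axes, as the mean of WT 1 and WT 2, for genes with a count on both alleles. The solid line marks balance and the broken lines 2-fold; red and blue points hold under every scaling, and Pou5f1 lies on the line while Nr0b1, Lefty2 and Krt18 lie far from it.

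The core pluripotency genes were close to balance, whereas the naive pluripotency genes were mostly higher on the mouse allele. Of 10 core genes tested, none was called for the mouse and 1 for the rat allele (3 without normalisation between alleles). This share of 10% compares with 48.5% over all tested genes. All 10 had at least 50 counts on each allele in each library, and 36% of all such genes were called. Pou5f1 (chr17:35506018-35510772 of GRCm38, as all positions here), which encodes Oct4, had 62450 and 69369 counts on the mouse and 47215 and 51566 on the rat allele, at mean levels of 1040 and 925. Its log2 ratio was 0.17 ± 0.01 (SE, n = 2 libraries), a 1.13-fold difference that lay far below 2-fold. Sox2 had a log2 ratio of 0.27 ± 0.02, Sall4 of 0.14 ± 0.02, and Nanog of 0.6 ± 0.02. Without normalisation between alleles the ratios of Pou5f1, Sox2 and Sall4 turned to −0.25, −0.16 and −0.28, and without division by length those of Sox2 and Nanog turned to −0.65 and −0.21, so that no direction is given for these genes. Trim28, a silencer of retroviral elements, lay on the other side at −0.7 ± 0.01. The core gene called for the rat allele was Lin28b, an inhibitor of let-7 processing, at −1.7 ± 0.1, and its direction turned to 1.04 without division by length.

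Of 20 naive genes listed, 16 were paired and all of these tested: 11 (68.8%) were higher on the mouse and 3 on the rat allele, and 10 and 2 of these held under every scaling. Over all tested genes 24.4% were higher on the mouse allele. The median log2 ratio of the list was 1.61, against 0 over all tested genes, and it was 1.18 without normalisation between alleles. Tfcp2l1 (chr1:118627945-118685168), a mediator of LIF and Wnt signals, had 60325 and 66811 mouse against 12046 and 13399 rat counts. Both libraries thus had a higher mouse level, by 5.26-fold (log2 2.39 ± 0.01). Klf4, Klf5 and Esrrb, further factors of the naive state, were 3.02-fold, 2.96-fold and 3.09-fold higher on the mouse allele. Tdh, the threonine dehydrogenase on which mouse ESCs depend, was 3.46-fold higher.

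Other naive genes were near the limit of detection on the rat allele. Nr0b1 (Dax1), a nuclear receptor on the X chromosome that restrains Oct4 activity, had 2179 and 2408 mouse counts but 3 and 1 rat counts, which made the mouse allele at least 964-fold higher. Nr5a2, a nuclear receptor that can stand in for Oct4 in reprogramming, had 8054 and 8982 mouse against 409 and 380 rat counts, a 24.1-fold difference. Spp1, which encodes osteopontin, was 50.6-fold and Fbxo15, a target of Oct4 and Sox2, 41.8-fold higher on the mouse allele. The pattern had exceptions that held under every scaling. Dppa3 (Stella; chr6:122626410-122630272), a protector of maternal methylation, had 328 and 319 mouse against 13269 and 14942 rat counts, a log2 ratio of −4.92 ± 0.04. Gbx2, a homeobox target of Stat3, was 2.56-fold higher on the rat allele. Prdm14, a repressor of Fgf signalling, was not called, at −0.41 ± 0.05.

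Genes of formative and primed epiblast split between the alleles, with 5 of 16 tested higher on the mouse and 6 on the rat allele. Together 68.8% were called, against 48.5% over all tested genes. The Nodal antagonists Lefty1 and Lefty2, neighbours on mouse chromosome 1, went opposite ways. Lefty1 had 220 and 209 mouse against 12940 and 14088 rat counts, whereas Lefty2 had 5537 and 6050 mouse against 40 and 28 rat counts. The rat allele was 52.3-fold higher for Lefty1 and the mouse allele 120-fold higher for Lefty2, in both libraries and under every scaling. Lefty1 and Lefty2 are close paralogs, and how reads shared between them were divided was not tested. Zic2 and Zic5, zinc finger factors of the epiblast, were 12.2-fold and 4.24-fold higher on the rat allele. Dnmt3l, the cofactor of the de novo methyltransferases, had 5752 and 6429 mouse against 26350 and 28167 rat counts, which made it 5.89-fold higher on the rat allele. Dnmt3b, the enzyme itself, leaned to the mouse allele at 1.24 ± 0.03, a call lost without normalisation between alleles, and Dnmt3a was not called at −0.25 ± 0.05, which turned to 0.97 without division by length. Fgf5 and Otx2, which mark exit from the naive state, had at most 8 counts in any column and were not tested.

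**Figure D2:**
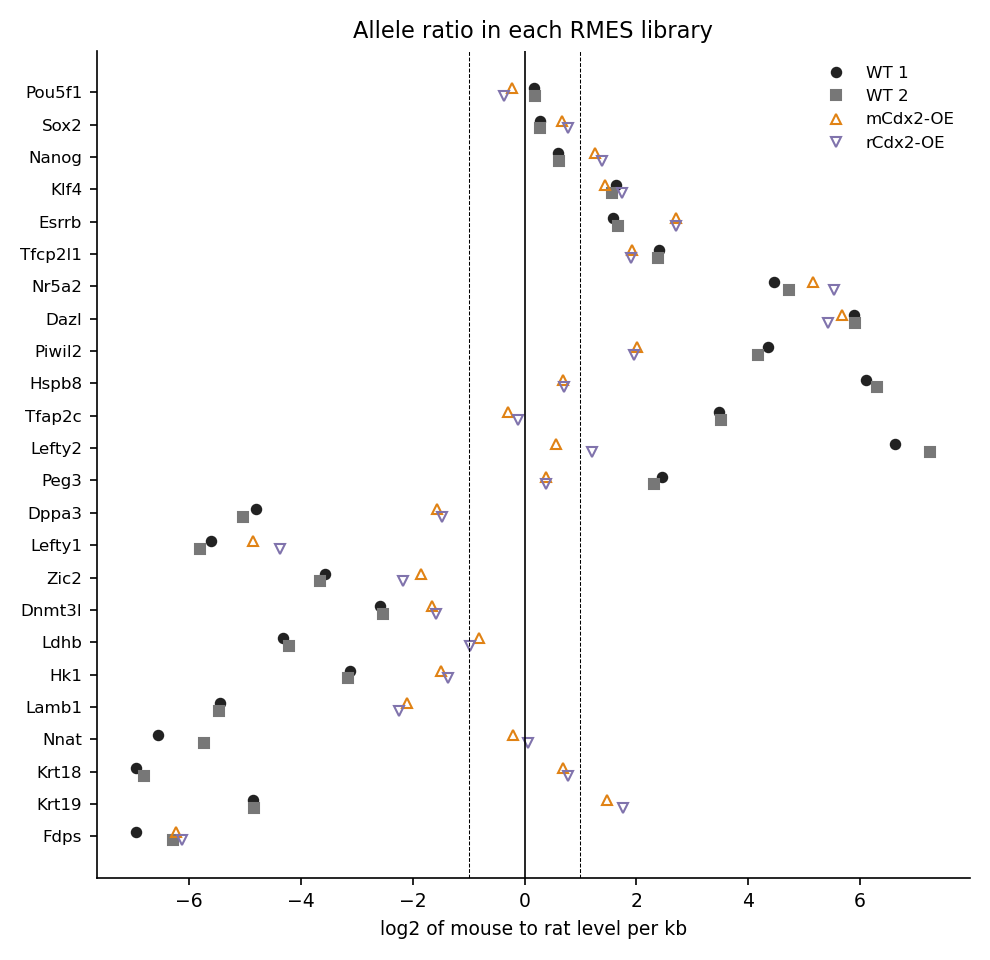
Log2 of the mouse to rat level per kb (x axis) of 24 genes in each of the 4 RMES libraries, with a point per library. WT 1 and WT 2 coincide for most genes; the induced libraries lie near WT for Klf4, Dazl and Fdps and far from it for Krt18, Lefty2, Tfap2c and Nnat.

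Components of the LIF pathway were called about as often as all genes. Of 18 tested, 5 were higher on the mouse and 4 on the rat allele (50.0%, against 48.5% over all tested genes), and 4 and 3 held under every scaling. Among the feedback inhibitors, Socs1 had 103 and 120 mouse against 964 and 977 rat counts, 16.5-fold higher on the rat allele. Socs2 had 4156 and 4571 mouse against 72 and 87 rat counts, 14.5-fold higher on the mouse allele. These Socs genes therefore had opposite directions in both libraries. The kinase Jak2 was 2.59-fold higher on the rat allele, and Stat5a was 5.18-fold and Stat5b 3.24-fold higher on the mouse allele. Stat3 had a log2 ratio of −1.2 ± 0.02, a call lost without division by length.

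Wnt signalling genes were called in 15 of 27 cases, 9 for the mouse and 6 for the rat allele, a share of 55.6% that lay near the 48.5% over all tested genes. Among the negative feedback genes, Notum, which strips the lipid from Wnt proteins, had 3440 and 3878 mouse against 63 and 86 rat counts and was 55.9-fold higher on the mouse allele. Rnf43, a ubiquitin ligase that removes Wnt receptors, was 7.73-fold higher on the rat allele. Of the receptors, Fzd5, Fzd7 and Lrp5 were 3.69-fold, 4.95-fold and 7.28-fold higher on the mouse allele, whereas Fzd1 was 3.58-fold higher on the rat allele. The nuclear factors divided as well: Tcf7l1, which represses naive genes, was 5.88-fold and Tcf7l2 22.2-fold higher on the mouse allele, and Lef1 was 7.05-fold higher on the rat allele. The ligand gene Wnt3a had 5 and 8 mouse against 655 and 796 rat counts. Its rat level was 85.7-fold higher.

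Cdx2, the factor that the study overexpressed, was itself transcribed in uninduced RMES cells. The gene (ENSMUSG00000029646, chr5:147300805-147307270, minus strand) had 4187 and 4541 mouse against 12384 and 13178 rat counts. The mean levels were 68.7 on the mouse and 165 on the rat allele, a log2 ratio of −1.26 ± 0.02 that held under every scaling. The call was lost when all 4 RMES libraries entered the fit (−1.27), and there without WT 1 (−1.15) and without WT 2 (−1.18). These fits take the spread also from the induced libraries. Reads of a transgene would be counted on the allele of its species, and any part of them in these values was not tested. In the mCdx2-OE library the mouse column held 40590 and the rat column 1770 counts, and in the rCdx2-OE library the columns held 186 and 33680, so the allele of the construct's species was the higher in each. The paralog Cdx1 had 10735 and 10691 mouse against 1987 and 2032 rat counts and was 3.34-fold higher on the mouse allele, the reverse of Cdx2.

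Most other posterior genes were lower in level. Hoxa7, of the Hox genes that pattern the trunk, had 2151 and 2620 mouse against 18 and 7 rat counts and was 182-fold higher on the mouse allele, with a log2 ratio of 7.51 that became 8.57 without WT 1. Evx1, a homeobox gene of the posterior streak, had 315 and 352 mouse against 10 and 6 rat counts. Hoxb6, Hoxc8 and Hoxd9 were also higher on the mouse allele, by 5.14-fold, 7.47-fold and 3.92-fold, at mean levels under 3. Hoxb1 and Hoxb2 were higher on the rat allele, with at most 22 counts in a column. In all, 7 of 18 mesoderm, Hox and posterior genes tested were higher on the mouse and 5 on the rat allele, and each of these calls held under every scaling. The share called was 66.7%, against 48.5% over all tested genes. Only 7 of the 18 had at least 50 counts on each allele in each library. Of all tested genes with a level, summed over alleles, of 1 to 3, 71.8% were called.

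Trophoblast genes, the lineage that Cdx2 specifies in the embryo, were called in 16 of 19 cases, 8 for each allele. This share of 84.2% compares with 48.5% over all tested genes, without matching for level. At least 50 counts on each allele were found for 11 of the 19. The keratin genes lay on the rat side, and the genes of transcription factors on both. Krt18 (chr15:102028180-102032027), an epithelial intermediate filament, had 42 and 48 mouse against 6634 and 6897 rat counts, a log2 ratio of −6.87 ± 0.07. Its partner Krt8 and the related Krt19 were 3.91-fold and 28.7-fold higher on the rat allele. In contrast, Gata2 had 1924 and 1794 mouse against 28 and 50 rat counts, 40.4-fold higher on the mouse allele (log2 5.34, and 5.96 without WT 2), and Tfap2c had 5127 and 5356 mouse against 303 and 304 rat counts, 11.2-fold higher. Tfap2a and Gata3 followed at 5.73-fold and 13.6-fold. Ascl2, which spongiotrophoblast requires, was 83.2-fold higher on the mouse allele with 262 and 267 against 4 and 4 counts. Cdx2, described above, and Eomes, the T-box factor of trophoblast stem cells, lay on the rat side, the latter with 193 and 220 mouse against 647 and 662 rat counts. Bmp4, a ligand, was 2.12-fold higher on the rat allele, a call lost at −0.98 without WT 2.

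Primitive endoderm genes divided 5 to 6 among 16 tested, so that 68.8% were called, against 48.5% over all tested genes. Only 8 of the 16 had at least 50 counts on each allele, and the list was not matched for level. Lamb1, a laminin chain of basement membrane, had 348 and 382 mouse against 11603 and 12947 rat counts and was 43.9-fold higher on the rat allele. Its partner chains Lama1 and Lamc1 were not called, at −0.07 ± 0.02 and 0.58 ± 0.02. Sparc, a matrix protein, was 4.02-fold and Hnf4a, a nuclear receptor of endoderm, 5.15-fold higher on the mouse allele. Foxa2 had 5 and 5 mouse against 91 and 106 rat counts, and Sox17 had 18 and 10 against 47 and 38. Gata6 had 149 and 122 mouse against 17 and 26 rat counts.

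After naive pluripotency, the germline list had the largest share of mouse-higher genes among the lists with at least 10 genes tested. It was 55%, against 24.4% over all tested genes. Of 29 listed, 23 were paired and 20 tested: 11 were higher on the mouse and 3 on the rat allele, all 14 held under every scaling, and the median log2 ratio was 2.28 (0.51 among the 10 genes with at least 50 counts on each allele). Dazl (chr17:50279395-50293636), an RNA-binding protein of germ cells that ESCs also transcribe, had 15534 and 16605 mouse against 347 and 363 rat counts, a 59.7-fold difference. Piwil2, an Argonaute protein of the piRNA pathway, had 9586 and 9984 mouse against 626 and 729 rat counts, a 19.2-fold difference. Ddx4 (Vasa) was 5.19-fold higher with 2000 and 2127 against 522 and 552 counts. The meiotic genes were lower in level but went the same way. Sycp1, of the synaptonemal complex, had 900 and 994 mouse against 16 and 18 rat counts, and Hormad1, which marks unpaired chromosome axes, had 609 and 694 against 30 and 51. Stk31 was 35.6-fold, Mael 18.6-fold and Brdt 22.4-fold higher on the mouse allele, the last with a log2 ratio of 4.49 that became 5.19 without WT 1. On the rat side, Tex19.2 had 107 and 164 mouse against 6848 and 7030 rat counts, 36.5-fold higher, while its paralog Tex19.1 was not called at 0.43 ± 0.03, which turned to −0.19 without division by length.

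Promoters of germline genes are shown because many carry the E-box CACGTG, which factors of the Myc, Max and Mga family bind. In the mouse promoter sequences of RefSeq (GRCm38.p6, 250 bases before to 50 after the start, read on either strand since the motif is its own complement), 8 of the 10 mouse-higher germline genes with an entry held it, those of Brdt, Ddx4, Hormad1, Mael, Slc25a31, Stk31, Sycp1 and Sycp3. Neither of the 2 rat-higher genes with an entry held it, and 2 of 5 uncalled ones did. Over all 27025 promoters the share was 7.24%, and over those of tested genes 10.1%. By call over all tested genes it was 9.51% for mouse-higher, 8.84% for rat-higher and 11% for uncalled genes. Dazl, also mouse-higher, had no match in its window, which counted 28 CpG. Rat promoters were not used here, so whether the rat alleles hold the motif was not tested. Capitals mark the E-box in 4 mouse-higher genes, and Tex19.2, the gene furthest to the rat side, is shown beside them without a match.
Sycp1, chr3:102936051-102936350, minus strand: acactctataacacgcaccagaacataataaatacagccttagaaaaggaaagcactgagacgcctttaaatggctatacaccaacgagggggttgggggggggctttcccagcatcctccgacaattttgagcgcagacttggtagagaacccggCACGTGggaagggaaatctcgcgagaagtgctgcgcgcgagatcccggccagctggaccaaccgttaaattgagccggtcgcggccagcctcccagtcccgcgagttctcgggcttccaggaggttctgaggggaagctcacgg
Stk31, chr6:49395289-49395588, plus strand: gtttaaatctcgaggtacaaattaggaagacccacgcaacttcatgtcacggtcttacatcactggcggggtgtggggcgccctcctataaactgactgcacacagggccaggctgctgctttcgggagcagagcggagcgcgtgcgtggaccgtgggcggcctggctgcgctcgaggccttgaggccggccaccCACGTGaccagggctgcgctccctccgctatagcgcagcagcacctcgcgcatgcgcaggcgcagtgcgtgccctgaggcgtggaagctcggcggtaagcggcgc
Hormad1, chr3:95559427-95559726, plus strand: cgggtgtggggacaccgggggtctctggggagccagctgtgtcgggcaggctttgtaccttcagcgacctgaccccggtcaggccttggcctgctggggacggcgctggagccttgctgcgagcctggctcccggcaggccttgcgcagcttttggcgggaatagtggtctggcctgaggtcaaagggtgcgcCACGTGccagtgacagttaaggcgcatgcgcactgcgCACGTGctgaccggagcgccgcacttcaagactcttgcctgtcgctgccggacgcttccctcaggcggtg
Brdt, chr5:107330944-107331243, plus strand: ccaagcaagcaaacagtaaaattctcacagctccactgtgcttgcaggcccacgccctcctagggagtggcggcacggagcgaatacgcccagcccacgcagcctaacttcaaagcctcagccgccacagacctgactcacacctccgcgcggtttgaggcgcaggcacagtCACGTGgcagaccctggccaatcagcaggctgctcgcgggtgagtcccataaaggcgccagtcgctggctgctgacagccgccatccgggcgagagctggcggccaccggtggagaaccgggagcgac
Tex19.2, chr11:121118628-121118927, minus strand: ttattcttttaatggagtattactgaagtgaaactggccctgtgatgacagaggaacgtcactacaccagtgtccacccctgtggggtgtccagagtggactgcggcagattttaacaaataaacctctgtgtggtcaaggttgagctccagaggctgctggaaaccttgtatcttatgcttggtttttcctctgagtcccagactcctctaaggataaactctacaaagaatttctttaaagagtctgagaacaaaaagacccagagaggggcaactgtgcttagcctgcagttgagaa
The Hormad1 window held 2 matches and the other 3 held 1 each. These windows counted 21, 29, 24 and 23 CpG, against 2 in the window of Tex19.2. A match in the mouse sequence is a description of these letters and not of a bound site.

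Across all genes, the share called fell with the CpG count of the mouse promoter. A promoter was found for 9837 of the 12243 tested genes (80.3%). Among genes with 0 to 2 CpG in the 300 bases 76.7% were called, against 38.1% with 31 or more. Level moved with this, since genes with few CpG were lower, at a median level of 2 against 23.4. Among genes with a level of at least 10 the shares were 57.3% and 31%. The median CpG count was 18 for mouse-higher and 18 for rat-higher genes and 23 for uncalled ones, and it was 14 and 8 for those called over 16-fold. By level alone, 72% of genes under a level of 1 were called and 30.7% of those between 100 and 300. The shares called in the gene lists were not matched for level.

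**Figure D3:**
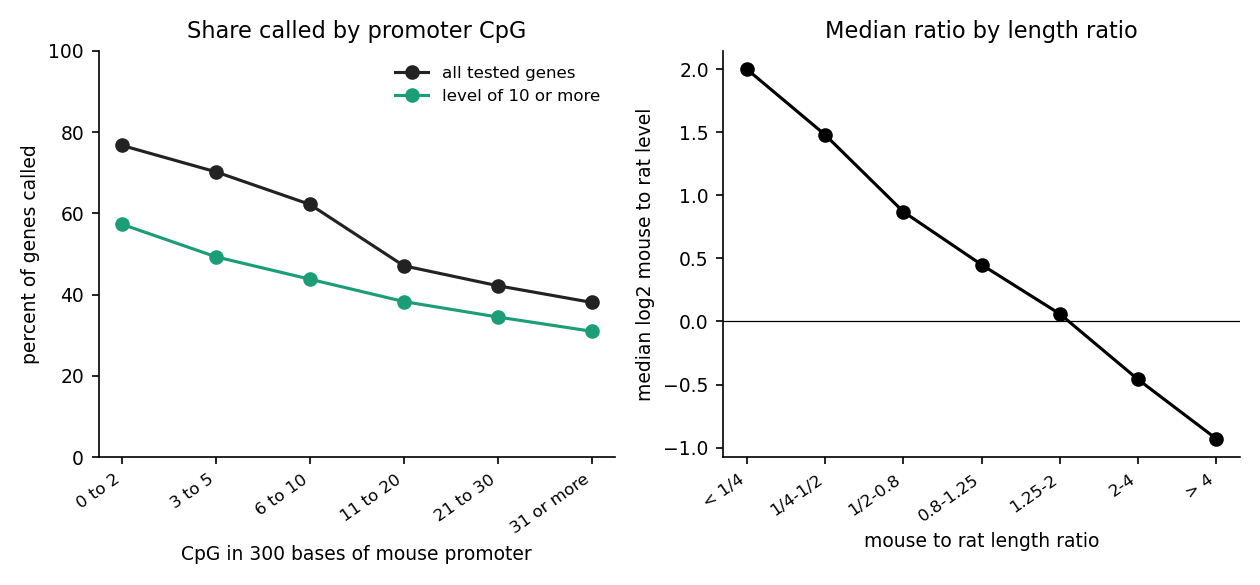
Left, percent of tested genes called (y axis) by the number of CpG in the 300-base mouse promoter (x axis), for all tested genes and for those with a level of 10 or more; both fall from left to right. Right, median log2 mouse to rat level (y axis) by the ratio of annotated lengths (x axis), which falls from 2 to −0.93.

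Imprinted genes are transcribed from the allele of 1 parent, and which parent each haploid genome came from is not given in the sources used here. Of 18 paternally expressed genes tested, 8 were higher on the mouse and 6 on the rat allele (77.8% called, against 48.5% over all). Those on the mouse side included Snrpn, with 4343 and 4556 mouse against 20 and 13 rat counts, and Plagl1, a growth regulator, with 17045 and 19001 against 749 and 912. Peg3 and Impact were 5.21-fold and 4.22-fold higher there. On the rat side, Igf2, the fetal growth factor, had 2 and 5 mouse against 409 and 452 rat counts and was 90.1-fold higher, with a log2 ratio of −6.49 that became −7.11 without WT 2. Nnat and Inpp5f were 66.7-fold and 8.31-fold higher there. Snrpn and Nnat were among the 10 genes of their directions with the largest ratios, out of those with like lengths and counts on both alleles. The 18 maternally expressed genes tested gave 5 calls for each allele, with Gnas at 4.38-fold on the mouse side and Cdkn1c, a cell cycle inhibitor, at 2.72-fold on the rat side. Of these maternally expressed genes 55.6% were called, near the 48.5% over all tested genes.

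Glycolysis leaned to the rat allele, with 11 of 23 genes higher there against 5 on the mouse allele, and 8 and 5 held under every scaling. The rat-higher share was 47.8%, against 24.0% over all tested genes. Lactate dehydrogenase showed it for both subunits: Ldha had 19787 and 22576 mouse against 66688 and 72760 rat counts (5.07-fold), and Ldhb had 257 and 307 against 5856 and 6500 (19.1-fold). Hk1, which phosphorylates glucose, was 8.78-fold higher on the rat allele, and Eno1 and Pkm, enzymes of the later steps, 3.49-fold and 3.3-fold. The phosphofructokinase genes Pfkm and Pfkp were 3.58-fold and 4.13-fold higher on the mouse allele. Tpi1, triosephosphate isomerase, had 16583 and 18112 mouse against 108 and 103 rat counts, and the glucose transporter Slc2a3 had 61638 and 67897 against 81 and 102. Both ratios were as large in the induced libraries, at 7.89 and 9.27 on the log2 scale, where lengths and annotation are the same. The part that the assignment of reads has in them was not tested.

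Antiviral genes also leaned to the rat allele, with 12 of 28 tested higher there and 4 on the mouse allele. The rat-higher share was 42.9%, against 24.0% over all tested genes. Among sensors and effectors of double-stranded RNA, Eif2ak2 (PKR) had 146 and 125 mouse against 1130 and 1368 rat counts. In contrast Oas1a, a synthetase of oligoadenylates, had 826 and 921 mouse against 5 and 4 rat counts, and Ddx58 (RIG-I) had 4265 and 4745 against 62 and 76. Irf1 and Irf7, which drive interferon responses, were 3.92-fold and at least 19.9-fold higher on the rat allele. Of the membrane restriction factors, Ifitm1 was 4-fold higher on the rat allele, and Ifitm3 4.08-fold and Bst2 70.2-fold higher on the mouse allele.

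Detoxification genes were called in 26 of 39 cases, 14 for the mouse and 12 for the rat allele. The share called was 66.7%, against 48.5% over all tested genes. The glutathione S-transferases of the mu class, Gstm1, Gstm2, Gstm3 and Gstm4, were 40.8-fold, 6.27-fold, 18.5-fold and 8.28-fold higher on the mouse allele. They are paralogs, and how reads were divided among them was not tested. Gsta4 was 21.3-fold higher on the mouse allele with 5942 and 6986 against 308 and 342 counts. Nqo1, a quinone reductase, was 3.16-fold and Prdx6, a peroxidase, 3.4-fold higher on the rat allele. Among 46 cell cycle genes, 8 were higher on the mouse and 6 on the rat allele, 30.4% against 48.5% over all. The inhibitors divided: Cdkn2a, with 458 and 479 mouse against 25 and 28 rat counts, was 18.5-fold and Cdkn1a 3.77-fold higher on the mouse allele, and Cdkn1b 3.35-fold higher on the rat allele. Cdk6 had 7308 and 8551 mouse against 10 and 10 rat counts.

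Most lists of constitutive machinery had few calls that held, where 33.8% of all tested genes did and 18.3% of those with at least 50 counts on each allele. The shares called in these 2 sets of genes were 48.5% and 36%. Of 61 nuclear-encoded respiratory chain genes, 22 (36.1%) were called and 3 held under every scaling. Of 36 proteasome genes, 8 (22.2%) were called and 2 held, and of 27 cholesterol synthesis genes 3 (11.1%) were called and 2 held. Without division by length the calls numbered 4 for the respiratory chain and 2 for the proteasome. Of 76 ribosomal protein genes, 42 were called and 18 (23.7%) held, with 14 of the 18 on the mouse side. The share called, 55.3%, lay near the 48.5% over all tested genes. Ribosomal protein genes have many near-identical copies, and their ratios ranged to extremes in both directions, as for Rps6 with 26717 and 28853 mouse against 12 and 13 rat counts and Rpl36al with 55 and 55 against 27749 and 29889. Their ratios in the induced libraries were 12.72 and −8.07 on the log2 scale. The part that the assignment of reads among copies has in these values was not tested.

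**Figure D4:**
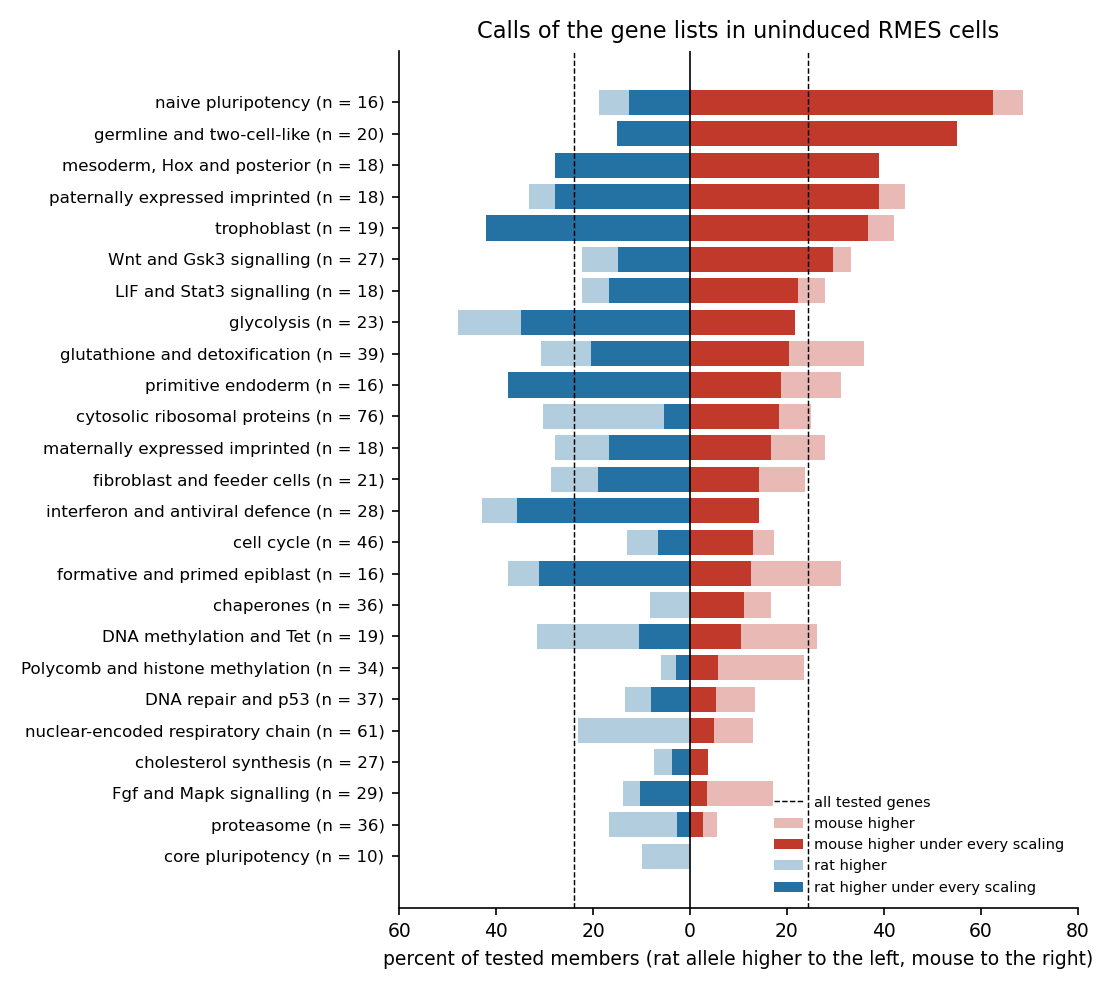
Percent of tested members of each gene list that were called higher on the mouse (right, red) or rat allele (left, blue); the dark part of each bar holds under every scaling, and broken lines mark the shares over all tested genes. Naive pluripotency and germline genes reach furthest to the right, and glycolysis and antiviral genes extend to the left.

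By the naming rule, the 10 genes per direction with the largest ratios among those with counts on both alleles and like lengths were mostly of no common list. On the mouse side, Mylpf, a myosin light chain, led with 18533 and 20842 mouse against 28 and 17 rat counts, a log2 ratio of 9.65 ± 0.05 that became 10.24 without WT 1. The genes that followed, between 8.95 and 6.84, included Rpl7a, Hells, Snrpn, Mcf2, Ly75, Cpne1, Rnf17 and Gspt1. Hells, a chromatin remodeller that DNA methylation requires, had 5623 and 6296 mouse against 11 and 13 rat counts. On the rat side, Ece1, the endothelin-converting enzyme, led with 20 and 19 mouse against 4063 and 4260 rat counts, a log2 ratio of −7.49 ± 0.09. Filip1, Krt18, Trank1, Ocln, Clic6, Fdps, Gcnt1, Vax2 and Nnat followed, between −7.21 and −6.06. Fdps, which makes farnesyl diphosphate for cholesterol and prenylation, had 110 and 186 mouse against 13029 and 13876 rat counts. The calls of all genes named here held under every scaling.

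Some genes were counted on 1 allele only. With no more than 3 counts on the other allele in each library, 526 tested genes (4.3%) were present on the mouse and 372 (3.04%) on the rat allele. The highest in level on the mouse side were Fau, Selenow, Hnrnpab, Ndufa1 and Ncbp2, with Fau at 13119 and 13851 against 0 and 0 counts, at least 2910-fold higher. On the rat side they were Fcrla, Exosc6, Adh4, Foxe1 and Wdr74, with Fcrla at 0 and 0 against 10846 and 12467 counts, at least 2750-fold higher. Several of the mouse-side genes, such as Fau, a ribosomal fusion gene, and Ndufa1, a subunit of complex I, are needed by every cell. Exons of other genes on the same strand covered 100% of mouse Exosc6, and reads in such overlaps are not counted for either gene by the default of the counter. At least 50% of the exons were so covered for 12 of the 372 rat-side genes (3.23%) and 4 of the 526 mouse-side genes (0.76%), against 0.768% of tested genes. Among the one-sided genes with at least 100 counts in each library, 114 of 202 on the mouse and 41 of 100 on the rat side still had no more than 3 counts on the other allele in the induced libraries, and 21 and 13 had at least 50.

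The highest called genes by level were Ptma, Rpl32, Rpl36, Rhox5 and Trh on the mouse and Pkm, H2afz, Eno1, Rps27 and Rps3 on the rat side. Ptma, the abundant nuclear protein prothymosin alpha, had 112849 and 128234 mouse against 1644 and 1986 rat counts. The part that the assignment of reads has in this ratio was not tested. Trh, the precursor of thyrotropin-releasing hormone and a marker of naive ESCs, had 55555 and 63343 against 5948 and 6976 counts, a log2 ratio of 3.64 ± 0.02. The calls of Rpl32, Rpl36, Rhox5, H2afz, Rps27 and Rps3 did not hold under every scaling, and that of H2afz turned to 0.09 without division by length.

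By chromosome of the mouse gene, chromosome 16 stood apart. Among its 271 genes with at least 50 counts on each allele, the median log2 ratio was 0.75 in WT 1 and 0.78 in WT 2, or 1.7-fold towards the mouse allele. The other autosomes lay between −0.27 and 0.41 and the X chromosome at 0.11. Of the 383 tested genes of chromosome 16, 44.4% were called higher on the mouse allele, against 24.4% over all tested genes. Chromosome 18 came next at 36.6%, with a median ratio of 0.41 uninduced and 0.22 induced. In the induced libraries the median of chromosome 16 was 0.01, within the range of the autosomes from −0.24 to 0.23. Per allele, the mouse level of its genes was higher in uninduced than induced cells by a median 0.49 on the log2 scale, against −0.36 to 0.05 for the other autosomes, while the rat level, at −0.2, lay within the autosomal range of −0.29 to −0.17. Genes named above that lie on it include Gspt1, Ncbp2 and Tfrc, the transferrin receptor, with 54449 and 60733 mouse against 11216 and 12628 rat counts, and on the rat side Socs1 and Clic6. Copy number was not measured, and its part in these values was not tested.

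**Figure D5:**
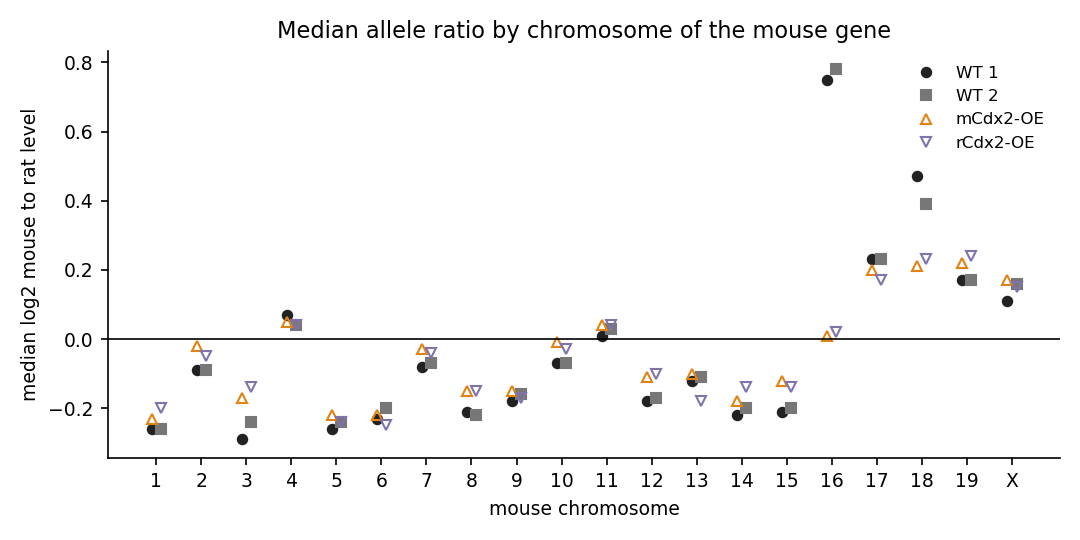
Median log2 mouse to rat level (y axis) by chromosome of the mouse gene (x axis) in each of the 4 RMES libraries, for genes with at least 50 counts on each allele in WT. Chromosome 16 lies at 0.75 and 0.78 in WT 1 and WT 2 and near 0 in both induced libraries.

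To ask how far the differences lasted in other cells, the same genes were compared in the 2 induced libraries, where 2575 of 13397 tested genes (19.2%) were called for the mouse and 2530 (18.9%) for the rat allele, 38.1% in all. Of the 5773 genes called uninduced and tested induced, 5196 had the same sign and 3445 (59.7%) were called the same way. Across 12057 genes the correlation of the log2 ratios was 0.809, given as a description, since both share lengths, annotation and the assignment of reads. The ratio itself changed over 2-fold in the allele-by-induction test for 3399 of 13605 genes, with 1658 (12.2%) more to the mouse side uninduced and 1741 (12.8%) more to the rat side, 25.0% in all. Lengths cancel in this change.

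Naive pluripotency genes kept their side in most cases, with 13 of the 14 called uninduced called the same way in induced cells. For Klf4 the ratio was 1.6 uninduced and 1.59 induced, for Klf5 1.57 and 1.58, and for Dazl 5.9 and 5.57. Dppa3 kept its direction but was less uneven, at −4.92 and −1.52, with a change of −3.48. In the trophoblast list 12 of 19 tested genes changed over 2-fold, against 25.0% of all genes, and among paternally expressed imprinted genes 13 of 18 and among antiviral genes 18 of 28 did. Each of these lists held more called genes than the whole. Of all genes called uninduced 44.5% changed over 2-fold, 2502 of 2641 towards balance or past it to the other side. The genes were selected by their uninduced ratio, which favours this direction, so no conclusion is drawn from it. Krt18 rose on the mouse allele from 42 and 48 to 11666 and 14314 counts, against 9971 and 11597 on the rat allele, so that its ratio went from −6.87 to 0.73. Krt19 went from −4.84 to 1.62, Tfap2c from 3.49 to −0.21 and Gata2 from 5.34 to 0.09. Among the imprinted genes, Nnat went from −6.06 to −0.07 and Peg3 from 2.38 to 0.38. Hspb8, a small heat shock protein, went from 6.2 to 0.7, and Lefty2 from 6.91 to 0.84. These genes passed the test of the change, with changes of at least 1.91 on the log2 scale.

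Of the genes called uninduced, 127 were called the other way in induced cells, 56 from mouse to rat and 71 from rat to mouse. Of these, 64 had at least 10 counts in all columns. Named after their values were seen, as the 5 per direction with the largest value of the smaller of their uninduced and induced ratios, are Chst2, Gstm3, Pgc, Gpld1 and Epha7, which went from the mouse to the rat side, and Sfxn3, Pdzk1, Ccr4, Frk and Adgrg1, which went the other way. Sfxn3, a mitochondrial serine transporter, had 145 and 153 mouse against 932 and 1009 rat counts uninduced and 1131 and 1262 against 229 and 214 induced. Pgc, a pepsinogen, had 2757 and 3007 against 782 and 818 uninduced and 74 and 49 against 326 and 230 induced. In both libraries of each kind the same allele was the higher.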

How the data were processed

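Polyadenylated RNA of 4 RMES libraries (2 WT, 1 mCdx2-OE, 1 rCdx2-OE) was sequenced in stranded read pairs. The authors aligned the pairs with STAR 2.7.0d to mm10 and to rn6, assigned each to a genome by edit distance and deposited read counts per gene from featureCounts, without normalisation, in 1 table per genome. How pairs matching both genomes equally well were treated is not given in the sources used here. Pseudogenes had been removed from the mouse annotation, per the methods of the paper.

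Genes were paired by identical symbol, mitochondrial genes (35 mouse, 13 rat) left out, and fitted with edgeR 4.0.16 (limma 3.58.1, R 4.3.3) after filterByExpr. Offsets were annotated length and TMM size of the length-scaled counts, and terms were library and allele. The fit was tested on simulated data. Errors are SE derived from the F statistic, and with 2 libraries the dispersion rests on the trend over genes. Other steps used Python 3.11.15 with pandas 2.3.3. The paired symbols held 89.6% to 93.6% of WT counts. WT 1 and WT 2 differed beyond counting noise (chi-square per degree of freedom 2.85 on the mouse and 2.41 on the rat allele). Each library holds both alleles, so the library number pairs them, and deviations of the libraries correlated between alleles at 0.219 over 7533 genes. A lower bound of a fold was computed against 3 counts per library, and covers counting error only.

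Members and lists were chosen with earlier results of these data known. Named were the 10 called genes per direction with the largest fold among those with at least 10 counts on each allele in each library, a mean of at least 50 on the higher allele, the same direction in both libraries and lengths within 1.5-fold, the 5 highest one-sided genes, the 5 highest called genes by level, and list members. Alternatives were DESeq2 1.42.0, other scalings, filters and fold thresholds, omitted libraries and no block. Mouse positions come from the GENCODE annotation of GRCm38. A few genes that these rules name are not reported here. Rat positions were not used here. Other assays of the series were not used here.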

Additional observations from a re-analysis of the deposited data

Results flagged for a closer look

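The difference between the alleles itself differed between uninduced and induced libraries, by the allele-by-induction term, for 3399 of 13605 genes. For the genes that were called opposite ways in the 2 kinds of library, the change of the log2 ratio (uninduced minus induced) was 3.08 for Chst2, 6.12 for Gstm3, 3.83 for Pgc, 4.21 for Gpld1 and 3.43 for Epha7. It was −5.33 for Sfxn3, −6.8 for Pdzk1, −4 for Ccr4, −4.86 for Frk and −5.32 for Adgrg1. Each kind of library is represented by 2 libraries, and cell line and induction cannot be told apart in these values.

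Mitochondrial genes, left out of the comparison, held signal that differed between the libraries. Mouse mitochondrial genes took 2.32% of the mouse counts in WT 1 and 2.65% in WT 2, and rat mitochondrial genes 0.0059% and 0.0078% of the rat counts. In the induced libraries the mouse shares were 0.0313% (mCdx2-OE) and 0.0259% (rCdx2-OE), and the rat shares 14.3% and 13.9%.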

How the results depend on the processing

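For genes higher on the mouse and on the rat allele, the main counts of 2992 and 2941 became 1459 and 1743 with at least 50 counts on each allele, 822 and 793 among genes of like length alone, 5487 and 5514 at any fold, and 1730 and 1461 over 4-fold. Without normalisation between alleles they were 2300 and 4150 (35.7% mouse, against 50.4%), with centring on genes of like length, chosen after seeing the data, 2296 and 4146, and in the induced cells, without normalisation, 1685 and 4420. Without division by length they were 3038 and 2423 and with DESeq2 2884 and 2765. Each WT library was left out in turn from the fit of all 4 RMES libraries, which keeps both induced libraries. The ratios then lay a median 0.1 on the log2 scale above those of the main fit, whichever WT library was omitted. Without the library as a block, that is unpaired, the counts were 2988 and 2941, those of the change with induction were 1639 and 1735 against 1658 and 1741, that of chromosome 16 was 0.85 as before, and the induced comparison had no such fit. Without the genes of chromosome 16, chosen after seeing the data, they were 2822 and 2891. The median of chromosome 16 less that of the other autosomes was 0.85, against 0.75 without division by length and 0.69 among genes of like length. Of 1530 pairs of a named called gene and an alternative, 1516 kept the call, 12 lost it and 2 turned. Without division by length the direction turned for Lin28b, to 1.04, and for H2afz, to 0.09. Beside the genes given with such values above, leaving out 1 library moved the ratio by over 1.5 times for Adh4, Cpne1, Evx1, Foxe1, Hnrnpab, Irf7, Nr0b1, Selenow and Slc25a31. The cause was not tested. Depth limits the genes with few counts, of which those with no more than 3 on an allele are given as bounds.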
